A study of Mus musculus with 4 samples.

Results

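Open chromatin that lay on exons and away from promoters was described in E14 cells, a line of mouse embryonic stem cells (ESCs), from peaks of ATAC-seq. In ATAC-seq a transposase cuts accessible DNA and adds sequencing adapters to it, and peaks are the stretches where such cuts are dense enough for a peak caller to report them. Peaks of 4 libraries were merged into 50704 autosomal regions when they shared at least 1 bp. A region was kept when fewer than 50% of its bases were soft-masked (the lower-case, repetitive bases of the reference). In addition, no transcript of GENCODE mouse release M21 could start within 1 kb, and the region had to touch an annotated exon. These 3 conditions left 2820 exonic regions, which is 5.56% of all regions (Wilson 95% interval 5.37 to 5.76%, counting error only). The other regions were 16194 promoter regions, 10418 intronic regions, 11605 intergenic regions and 9667 regions that were at least 50% soft-masked.

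The libraries were 1 of shGFP and 3 of shLuc (replicates 1, 2 and 3). E14 cells grown in serum and LIF were infected with a lentiviral vector carrying a short hairpin RNA against GFP or luciferase, kept in 2 μg/ml puromycin during 2 days, and collected 2 days later. Neither target is a mouse gene, so both hairpins are non-targeting controls, and all cells carry the vector and its selection. Nothing in the labels says that the shLuc replicates came from separate cultures, so their spread may be technical, and shGFP had no replicate. The lists give positions only, so the depth of each library and the height of each peak are unknown. They held 40290 autosomal peaks in shGFP and 17269, 39756 and 30336 in shLuc replicates 1, 2 and 3, so that shLuc replicate 1 stood apart with the shortest list. Of 10 stem cell marker genes checked at their promoters, Zfp42 had a peak in 4 libraries, Utf1, Esrrb and Klf4 had one in 2 or 3, and 6, with Pou5f1, Nanog and Sox2 among them, had none in any list. Of 4 genes of other cell types, Alb, Hba-a1 and Gata4 had no promoter peak and Myod1 had one in shLuc replicate 2.

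An exon is a stretch of a gene that is kept in the mature RNA. In a coding gene it holds coding sequence, which is translated, or untranslated sequence (UTR) before the start codon or after the stop codon, and the last exon usually holds the stop codon and the 3′ UTR. Promoters, and with them the exons at transcript starts, are often open, and open chromatin elsewhere in genes is usually sought in introns, where many enhancers lie. Coding exons are richer in G and C than introns, and some long ones carry CpG islands, stretches in which the dinucleotide CpG, depleted in most of the genome, is frequent.

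Base composition varied widely among the exonic regions, and short stretches from the ends of their range show what that looks like. The 30 bases at the centre of the 4 regions with the highest and the 4 with the lowest GC content, among those with a peak in all 4 libraries, are given on the strand of the gene, with each CpG in capitals (mm10 reference sequence). Dact3 encodes a Dishevelled-binding inhibitor of Wnt signalling, Evx2 a homeobox protein next to the HoxD cluster, Sptbn4 a spectrin of axons and Rasip1 a Ras-interacting protein of blood vessels. At the other end, Nsmce2 encodes a SUMO ligase of DNA repair, Kcnt2 a potassium channel and Nup205 a nuclear pore protein, and Gm29258 is an unprocessed pseudogene.
Dact3, chr7:16885719-16885748, + strand: cCGCGCGctgCGggcCGtCGgggcCGcctg
Evx2, chr2:74655934-74655963, - strand: tCGgctgctgcagcagCGgCGgctgcagCG
Sptbn4, chr7:27408785-27408814, - strand: gtgggccCGggCGcCGagcctttgcatttg
Rasip1, chr7:45628869-45628898, + strand: CGctttgCGaCGctctgggcCGgccCGCGg
Gm29258, chr7:39307922-39307951, - strand: cagttctttaatccatagcatatacagagg
Nsmce2, chr15:59416272-59416301, + strand: gaatctgaggtattttcccagctaggcacc
Kcnt2, chr1:140429336-140429365, + strand: aacttggaacattcctcagcatcacctttt
Nup205, chr6:35236346-35236375, + strand: tctcttttgttcttagcataccagagagaa
The 30 bases held 7 CpGs in Dact3, 4 in Evx2, 3 in Sptbn4 and 6 in Rasip1, and 0 in each of the other 4. Over the whole region the GC content was 75.5% in Dact3, 72.9% in Evx2, 72.5% in Sptbn4 and 72.3% in Rasip1, against 33.3% in Gm29258, 38.7% in Nsmce2, 38.8% in Kcnt2 and 40.7% in Nup205. All 4 of the GC-rich regions lay on coding sequence, 3 of them on the last exon of some transcript. Of these 3, the Rasip1 region lay only 12.0% along its gene, 9820 bp before the gene's end, and held no stop codon. Of the GC-poor regions, Nsmce2, Kcnt2 and Nup205 touched coding exons with only 12.5%, 1.6% and 4.6% of their bases, so most of those regions was intron.

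Coding sequence was under most of the exonic regions. It was touched by 1906 of 2820 (67.6%, Wilson 95% interval 65.8 to 69.3%). Another 419 (14.9%) touched UTR and no coding sequence, and 406 of these touched 3′ UTR. Exons of noncoding genes alone were touched by 358 (12.7%), and exons of noncoding transcripts of coding genes alone by 137 (4.86%). A last exon of some transcript was touched by 1476 regions (52.3%), among them 768 of the coding regions and 401 of the UTR regions. The noncoding genes were mostly lincRNAs (173 regions) and antisense RNAs (65 regions). A peak in all libraries was found at 44 of the 358 noncoding-gene regions (12.3%). None of the 8 regions on processed pseudogenes had one, nor did any of the 6 on sense intronic RNAs, and these counts are small.

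Regions crossed the borders of exons more often than they filled them. A splice site lay inside 1865 regions (66.1%), the stop codon inside 438 (15.5%) and a start codon inside 79 (2.80%), while 843 regions (29.9%) consisted of exon sequence only. The stop codon was inside 403 of the 768 coding regions on a last exon (52.5%). The centre of the region was in an exon for 1635 (58.0%). The rule removes regions near starts, which bears on distance and on position along the gene, and neither was compared with eligible exon sequence. The median distance to the nearest transcript start was 6201 bp (quartiles 2832 and 12743.5), the median position was 81.5% of the way from the 5′ end of the gene to its 3′ end, and 691 regions (24.5%) came within 1 kb of the gene's end. The rule's own limit of 1 kb from a start had 236 regions just inside it, within the next 500 bp, and 308 otherwise fitting regions just outside, within the last 500 bp before it.

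Counted per base of annotated sequence, region centres were denser on coding sequence than on intron, intergenic sequence, 3′ UTR and noncoding exons. The eligible sequence was all that was not soft-masked and lay over 1 kb from a start. There were 34.7 centres per Mb of coding sequence (exact Poisson 95% interval 32.3 to 37.1, from 793 regions), 17.9 per Mb of 3′ UTR (16.3 to 19.7), 17.0 per Mb of exons of noncoding genes (14.8 to 19.6), 14.9 per Mb of intron (14.6 to 15.2) and 13.9 per Mb of intergenic sequence (13.6 to 14.1). Coding sequence therefore held 2.32 times the density of intron, and 3′ UTR 1.20 times. Among regions with a peak in all 4 libraries the ratio for coding sequence was 5.06, from 6.34 centres per Mb against 1.25. Such regions must be in the shortest list, that of shLuc replicate 1, whose own ratio was 5.27. It was 2.28 in shGFP and 2.41 and 2.54 in shLuc replicates 2 and 3. The 5′ UTR rested on few centres, and its interval overlapped that of coding sequence, with 11 centres (20.1 per Mb, 10.0 to 36.0) in any library and 4 (7.31 per Mb, 1.99 to 18.7) in all 4.

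Coding sequence was denser in region centres on last exons than on other exons. A last exon was that of any transcript with at least 2 exons, so exons that end a shortened transcript counted as last. The exon of a single-exon gene counted as other. With transcripts tagged basic only, 43.9% of exonic regions lay on a last exon, against 52.3%. The contrasts of last and other coding exons, here and below, were not recomputed that way. Last exons held 50.9 centres per Mb (45.9 to 56.3), against 27.0 (24.4 to 29.7) on other coding exons. Within the libraries the density on last coding exons was 36.6 per Mb in shGFP and 19.3, 37.2 and 27.9 per Mb in shLuc replicates 1, 2 and 3, and that on other coding exons was 18.5 per Mb in shGFP and 8.24, 19.1 and 12.5 per Mb in shLuc. The ratio of last to other coding exons was thus 1.98 in shGFP and 2.35, 1.95 and 2.23 in shLuc (mean of 4 libraries 2.13 ± 0.193, SD), above 1 in 4 of 4 libraries. An exact sign-flip permutation test on the logarithms of the ratios gave a two-sided p of 0.13, the smallest that 4 libraries allow. The 2 kinds of coding sequence had nearly the same composition, with a GC content of 51.9% and a CpG observed over expected ratio of 0.415 on last exons and 51.0% and 0.402 on other exons. Intron sequence had 43.2% and 0.194, so composition moved with the difference between coding sequence and intron, and its part in that difference was not tested.

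**Figure D1:**
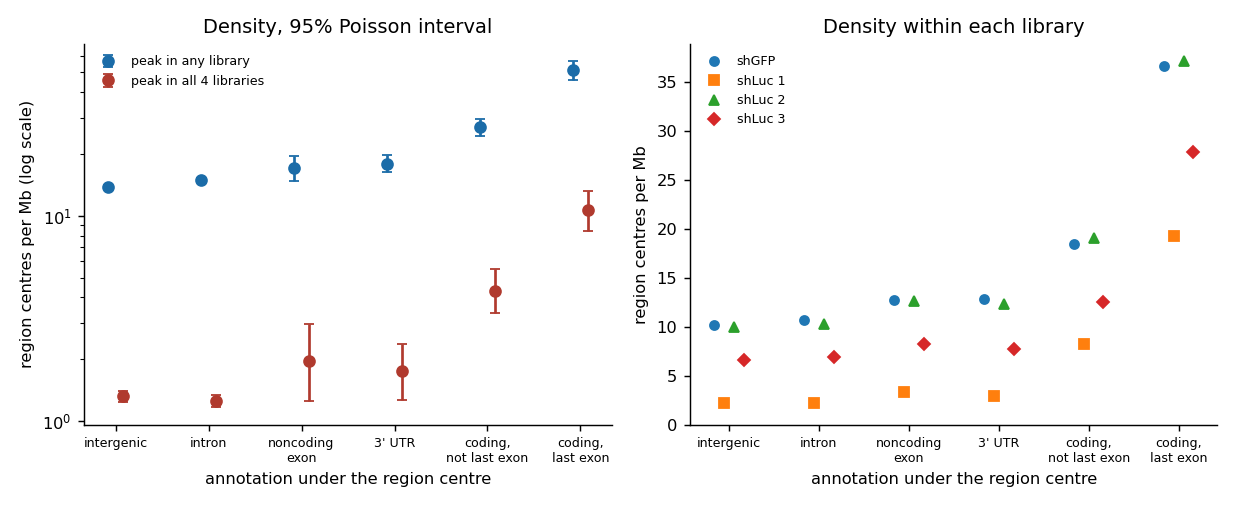
Left, region centres per Mb of eligible sequence (log axis) by the annotation under the centre, for regions with a peak in any library and in all 4, with exact Poisson 95% intervals. Right, the same density within each library (linear axis); the value on last coding exons was the highest of the 6 categories drawn in each of the 4 libraries, and shLuc 1 was the lowest library in every category.

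The density ratio of coding sequence to intron differed between libraries. It was 2.28 in shGFP and 5.27, 2.41 and 2.54 in shLuc replicates 1, 2 and 3. The high value came from the shortest list, shLuc replicate 1, and the other 3 libraries lay close together. For 3′ UTR the ratio was 1.21 in shGFP and 1.29, 1.19 and 1.13 in shLuc.

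The exonic regions were GC-rich compared with intronic ones and GC-poor compared with promoters. Their median GC content was 53.0% (quartiles 47.7 and 57.9), against 48.6% in intronic, 59.7% in promoter and 52.5% in all autosomal regions. The CpG ratio, the number of CpGs over that expected from the C and G content, had a median of 0.325, against 0.199, 0.680 and 0.339. Within the libraries the median GC content of exonic peaks exceeded that of intronic peaks by 4.21 percentage points in shGFP and by 5.57, 4.48 and 4.47 in shLuc replicates 1, 2 and 3 (mean 4.68 ± 0.604, SD, n = 4). The CpG ratio was higher by 0.120 in shGFP and by 0.175, 0.129 and 0.142 in shLuc (mean 0.142 ± 0.0242, SD, n = 4). Both differences were positive in 4 of 4 libraries and several times their SD. The exact sign-flip permutation test gave the smallest possible two-sided p, 0.13, for each. The rule itself favours this sign, since a region must touch an exon and coding sequence is richer in both than intron. Eligible coding sequence had 51.9% and 0.415 on last exons and 51.0% and 0.402 on other exons, against 43.2% and 0.194 in intron. A difference beyond that of the exon sequence was not tested. Exonic peaks were also wider than intronic ones, by 64 bp in shGFP and by 68, 59 and 59 bp in shLuc (mean 62.5 ± 4.36, SD, n = 4; exact permutation p = 0.13). A wider region touches an exon more often, so the rule itself favours width; the median width of exonic regions was 585 bp, and 572 bp for those with their centre in an exon.

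**Figure D2:**
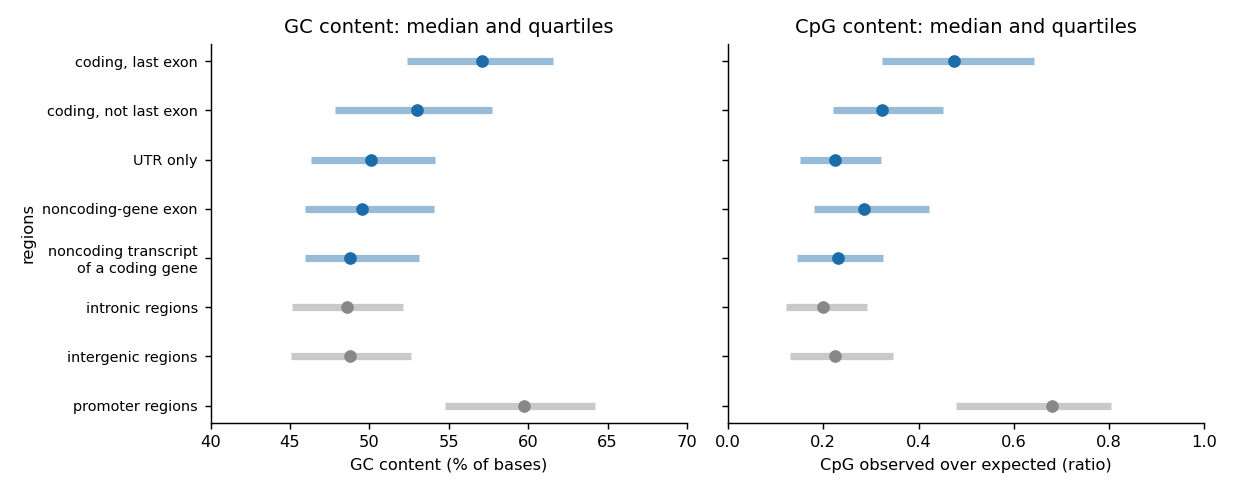
Median (point) and quartiles (bar) of the GC content and of the CpG observed over expected ratio of regions, by class of exonic region (blue) and for intronic, intergenic and promoter regions (grey). Coding regions on a last exon had the highest medians of the exonic classes, 57.1% and 0.475, and UTR regions stood near the intronic ones, at 50.1% and 0.225.

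The classes differed among themselves. Coding regions on a last exon had a median GC content of 57.1%, a CpG ratio of 0.475 and a width of 682 bp. Coding regions on other exons had 53.0%, 0.322 and 569.5 bp, and UTR regions 50.1%, 0.225 and 490 bp. Between last and other coding exons the median GC content of the regions with a peak differed by 3.97 percentage points in shGFP and by 4.04, 4.32 and 4.55 in shLuc replicates 1, 2 and 3 (mean 4.22 ± 0.265, SD, n = 4). The difference was higher on last exons in 4 of 4 libraries (exact sign-flip permutation test, two-sided p = 0.13). The eligible coding sequence as a whole had 51.9% on last and 51.0% on other exons, but a region also holds sequence around its exon, which these 2 values leave out. Exon made up a median of 78.1% of the coding regions on a last exon and 25.1% of those on other exons.

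CpG-island-like composition (a GC content of at least 50%, a CpG ratio of at least 0.6 and at least 200 bp) was found in 381 exonic regions (13.5%, Wilson 95% interval 12.3 to 14.8%), in 1.41% of intronic regions, in 3.44% of intergenic regions, in 61.7% of promoter regions and in 22.5% of all autosomal regions. The exonic share thus lay above the intronic one and below that of all regions. It was found in 232 of the 768 coding regions on a last exon (30.2%) and in 107 of the 1138 on other exons (9.40%), but in 8 of the 419 UTR regions (1.91%). Among regions with a peak in a library, the exonic share exceeded the intronic share by 12.0 percentage points in shGFP and by 21.4, 12.9 and 13.7 in shLuc replicates 1, 2 and 3 (mean 15.0 ± 4.31, SD, n = 4; exact permutation p = 0.13). The largest of these differences again belonged to the shortest list. The rule's demand for exon sequence favours this sign too, and its part was not tested.

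The widest regions shared by all libraries were mostly single long coding exons. On internal coding exons the widest were those of Sobp (chr10:43021008-43022689), of the mucin gene Muc6 (chr7:141638142-141639769), of Shroom3 (chr5:92941587-92943111), which encodes an actin-binding protein of cell shape, and of Apba1 (chr19:23892734-23894169), which encodes a neuronal adapter. The Sobp region, which lay wholly in exon, had a GC content of 68.8% and a CpG ratio of 0.795. Its peak width was 1609 bp in shGFP and 880, 1329 and 835 bp in shLuc replicates 1, 2 and 3. Here and below, the peak width of a library in a region is the sum over its peaks there. The Shroom3 region had 70.9% and 0.833, and its peaks were 1525 bp in shGFP and 792, 1465 and 1385 bp in shLuc. In both, shLuc replicate 1 or 3 had the smallest peak width and shGFP the largest. The Apba1 region had 68.5% and 0.971, whereas Muc6, with 52.0% and 0.195, was not CpG-rich.

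On last coding exons the widest shared regions included those of Eppk1 (chr15:76102888-76105770), Prdm13 (chr4:21678114-21680031) and Nhlh2 (chr3:102011478-102013305). Eppk1 encodes epiplakin, built from plakin repeats, and Prdm13 and Nhlh2 encode transcription factors of neurons. The Prdm13 peaks were 1692 bp wide in shGFP and 1480, 1780 and 1918 bp in shLuc replicates 1, 2 and 3, so the libraries overlapped in width. Prdm13 had a GC content of 70.3% and a CpG ratio of 0.824, and Nhlh2 62.0% and 0.673, and both regions held the stop codon. Eppk1 (60.7% and 0.467) was not CpG-island-like.

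Eppk1 and Muc6 stood out in another respect, since their sequence is repeated without being soft-masked. Of all 50-base words in a region, the share found more than once on the assembled chromosomes was 89.9% in Eppk1 and 57.5% in Muc6. It was 0% in Sobp, Shroom3, Apba1, Prdm13 and Nhlh2. The study's methods place a read at random when several best alignments are equal, and reads from repeated words can tie in this way. The exact place of those peaks is therefore uncertain, though a read or its mate can also reach unique sequence. Such regions were few: 2481 of 2820 exonic regions (88.0%) held no repeated word and 46 (1.63%) held over 50%, against 2.26% of intronic regions. Among the 46 were 27 of protein-coding genes, including Prdm9, a gene of meiotic recombination with a zinc finger array in its last exon (80.6%), and 8 of unprocessed pseudogenes.

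UTR regions were narrower and less shared. The widest with a peak in all libraries that lay wholly in exon was that of Myo5a (chr9:75221526-75222466), a motor protein gene, with peaks of 692 bp in shGFP and 635, 831 and 596 bp in shLuc replicates 1, 2 and 3. It had a GC content of 52.0% and a CpG ratio of 0.095. The regions at C87436 (chr6:86471892-86473333) and Wdr27 (chr17:14817722-14818716) were as wide or wider but held 63.9% and 19.9% exon. Away from last exons, the region of Cd47 (chr16:49803731-49804485), which encodes a cell surface protein that restrains phagocytosis, lay 3.1% along its gene, and that of Clec18a (chr8:111061847-111062787) held 16.5% exon.

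Among noncoding genes the widest shared regions touched the lincRNA genes Gm29418 (chr17:85799612-85801145), Gm29323 (chr10:21745929-21747280) and Gm39436 (chr9:113323910-113325127) and the pseudogene Gm29258 (chr7:39307365-39308508). Exon made up 20.2%, 15.9%, 8.9% and 12.4% of these regions, so most of their bases lay outside the annotated exons. Gm29418 alone was CpG-island-like, with a GC content of 61.0% and a CpG ratio of 0.639. In Gm29258 the width came from 1 library, with peaks of 346 bp in shGFP and 227, 1144 and 362 bp in shLuc replicates 1, 2 and 3, and 95.4% of its words were repeated.

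Coding regions were found in more libraries than UTR regions. Of all exonic regions 995 (35.3%) had a peak in 1 library, 689 in 2, 744 in 3 and 392 (13.9%, Wilson 95% interval 12.7 to 15.2%) in all 4. Over all autosomal regions 28.4% had a peak in 1 library and 27.3% in all 4. The share with a peak in all libraries was 15.8% for coding regions (14.2 to 17.5%), 12.3% for noncoding-gene exons (9.28 to 16.1%), 7.16% for UTR regions (5.06 to 10.0%), 7.83% for intronic regions (7.33 to 8.36%) and 54.3% for promoter regions. It reached 20.2% for coding regions on a last exon. The share for all exonic regions hung on the shortest list, since it was 37.6% in all remaining libraries without shLuc replicate 1. Regions in more libraries were also wider, with a median of 400, 583, 733 and 828 bp for 1, 2, 3 and 4 libraries. The CpG ratio was higher only in all 4, with medians of 0.310, 0.324, 0.304 and 0.417. The island-like share was 10.4%, 11.9%, 12.4% and 26.5%. Regions in all 4 must be in the list of shLuc replicate 1, where this share was 25.8%. It was 13.5% in shGFP and 14.3% and 15.3% in shLuc replicates 2 and 3. Merging peaks of more libraries by itself widens a region. The widest single peak of a region rose too, with medians of 400, 542, 694 and 785 bp. The widest of more peaks also tends to be wider, and these parts were not tested.

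**Figure D3:**
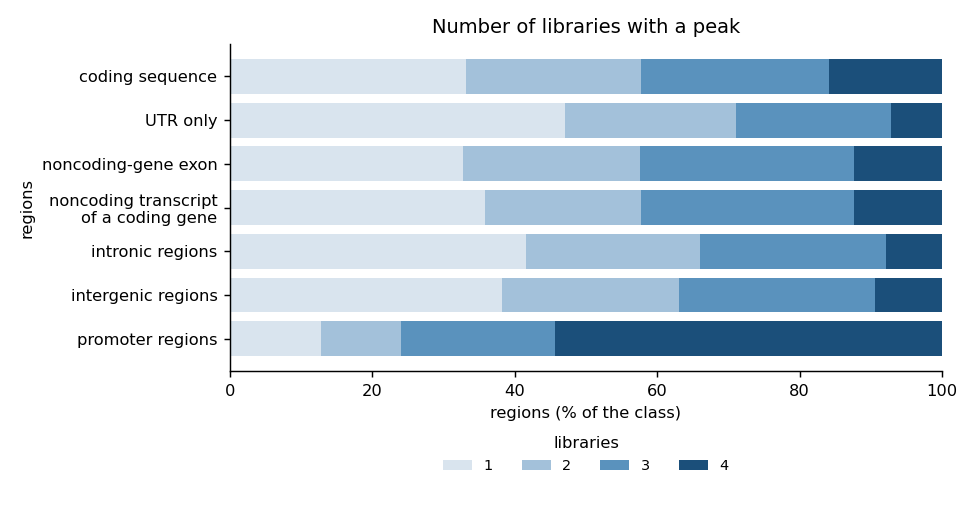
Share of regions (percent of each class) with a peak in 1, 2, 3 or 4 libraries, from light to dark. The dark end was 15.8% for coding sequence, 7.16% for UTR and 54.3% for promoter regions.

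Each library had between 683 and 2062 of the 2820 exonic regions. There were 2062 in shGFP and 683, 2048 and 1380 in shLuc replicates 1, 2 and 3. As a share of its own autosomal peaks, exonic peaks made up 5.13% in shGFP and 3.96%, 5.16% and 4.56% in shLuc (mean 4.56 ± 0.602, SD, n = 3). The difference between shGFP and the shLuc mean, 0.573 percentage points, was smaller than the shLuc SD, and shGFP lay between shLuc replicates 2 and 3. Without shLuc replicate 1 the difference was 0.270 points, and without replicate 2 or 3 it was 0.842 or 0.537. When the longer lists were reduced to as many of their widest peaks as the shortest list holds, the difference became -0.152 points. Coding sequence was under 67.7% of the exonic regions of shGFP and under 77.2%, 68.3% and 69.8% of those of shLuc (mean 71.8 ± 4.74, SD, n = 3), again with shLuc replicate 1 apart. With 1 library against 3, a permutation test cannot give a p under 0.25, so no test was made.

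**Figure D4:**
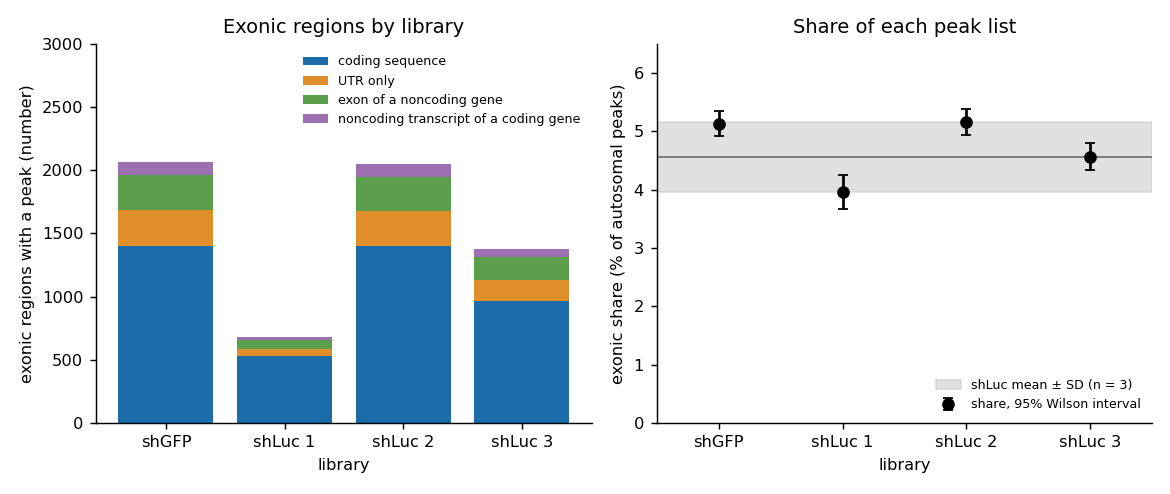
Left, number of exonic regions with a peak in each library, stacked by class; right, peaks in exonic regions as a percentage of each library's autosomal peaks with Wilson 95% intervals, and the shLuc mean ± SD in grey. The counts were 2062, 683, 2048 and 1380 from left to right, and the share in shGFP, 5.13%, lay within the shLuc band.

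The number of exonic regions found in shGFP alone lay within the range of those found in single shLuc libraries alone, and the number that only shGFP lacked lay just below the range of those that single shLuc libraries lacked. A peak in shGFP alone was found at 385 exonic regions (13.7%), and the same held for 11.7% of all 50704 regions. For shLuc replicate 2 alone the count was 397 (14.1%, against 11.4% of all regions). It was 122 for replicate 3 alone (4.33% against 3.46%) and 91 for replicate 1 alone (3.23% against 1.88%). A peak in all shLuc libraries and not in shGFP was found at 15 (0.532%), against 0.343% of all regions. For comparison, 634 regions lacked a peak only in shLuc replicate 1 (22.5%, against 22.1% of all regions). Those that lacked one only in replicate 3 were 78 (2.77% against 2.29%), and only in replicate 2 were 17 (0.603% against 0.513%). Both counts depended on which shLuc libraries were at hand: without replicate 1, 2 or 3 there were 418, 779 or 488 regions in shGFP alone and 92, 29 or 57 in all remaining shLuc libraries and not in shGFP. The widest found in shGFP alone were those of Lrrc4b (chr7:44461500-44462981), which encodes a synaptic adhesion protein, Casz1 (chr4:148951647-148953005), which encodes a zinc finger transcription factor, and the orexin receptor gene Hcrtr2 (chr9:76236374-76237506), with single peaks of 1482, 1359 and 1133 bp. Lrrc4b and Casz1 were CpG-island-like last coding exons, and the Hcrtr2 region was 1.4% exon. The widest found in every shLuc library and not in shGFP were those of Fam131a (chr16:20701487-20702823), with peaks of 415, 1337 and 886 bp in replicates 1, 2 and 3, of the adapter gene Shf (chr2:122348181-122349478), with 630, 1275 and 1067 bp, and of Dact1 (chr12:71317542-71318753), a paralog of Dact3, with 1057, 1064 and 1032 bp. All 3 lay on last coding exons.

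The exonic regions belonged to 2579 genes, of which 2229 were protein-coding, or 10.7% of the 20807 autosomal coding genes of the annotation. A single region was held by 2030 of these coding genes (91.1%), 2 regions by 176 and 3 or more by 23. The share of genes with a region rose with the length of their exons, from 3.11% of genes in the lowest quartile of exon length to 8.04%, 12.3% and 19.4% in the next 3. Host genes had an open promoter, a region within 1 kb of a start, more often than other coding genes, 76.4% against 64.7%. Within quartiles of exon length the shares were 43.8% and 37.6%, 60.3% and 62.5%, 74.8% and 76.5%, and 89.4% and 87.1%, so that the direction held in the lowest and highest quartile and turned in the other 2.

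Long genes held the most regions. Ryr1, which encodes the calcium release channel of skeletal muscle, held 6. Sptbn4 and Tnrc6b, which encodes a partner of Argonaute in silencing by miRNAs, held 5 each, and Itsn1, Magi1 and Myh14, which encode an endocytic scaffold, a scaffold of cell junctions and a non-muscle myosin, held 4 each. Kndc1 and the cell adhesion gene Sdk2 held 3 each, as did further genes. In Ryr1, 1 of the 6 regions (chr7:29108853-29109547) had a peak in all libraries, 659 bp wide in shGFP and 521, 621 and 374 bp in shLuc replicates 1, 2 and 3. In Sptbn4, 3 of the 5 had one, and their GC contents were 62.1%, 57.7% and 72.5%. In Tnrc6b none did, and 4 of its 5 regions had a peak in a single library. The regions were spread along Ryr1, from 5.5% to 86.4% of its length, and lay between 86.5% and 99.5% in Magi1.

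**Figure D5:**
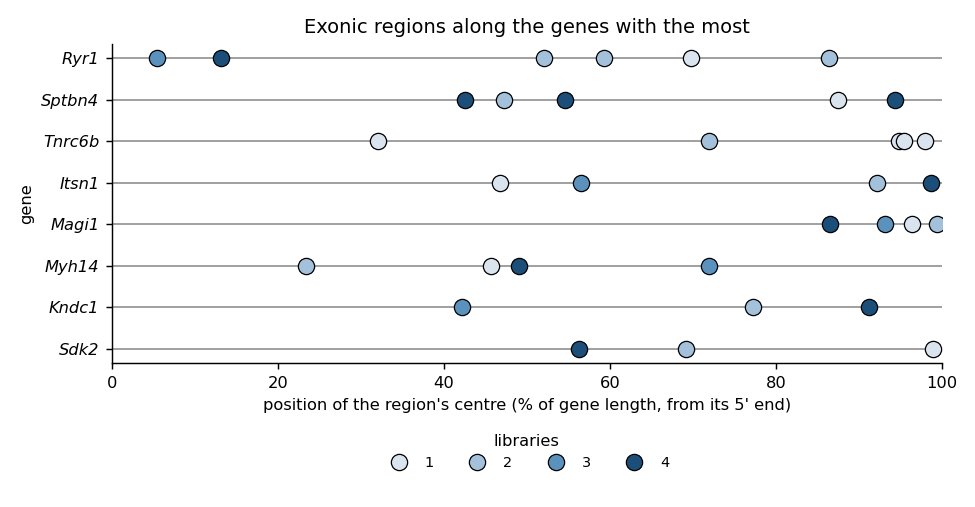
Position of the centre of each exonic region along the 8 genes named for the number of regions they hold, as a percentage of gene length from the 5′ end, with darker points for peaks in more libraries (1 to 4). Sptbn4 had 3 regions with a peak in all 4 libraries and Tnrc6b had 0.

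Gene families differed in how many of their genes held an exonic region; these are counts beside the 10.7% of all coding genes, without a test. Of the 57 clustered protocadherin genes, which encode adhesion proteins that neurons express in individual combinations, 24 (42.1%) held a region. They were 18 of the 22 Pcdhb genes, 3 of 14 Pcdha genes and 3 of 21 Pcdhg genes, and all 24 regions consisted of exon only. Pcdhb genes have a single large coding exon, and these regions lay within it, over 1 kb from the start. A peak was found in 19 of the 24 in shGFP and in 6, 23 and 12 in shLuc replicates 1, 2 and 3. In Pcdhb14 (chr18:37449211-37450123) the peaks were 714 bp wide in shGFP and 752, 743 and 889 bp in shLuc, in Pcdhb10 (chr18:37413430-37414316) 854 bp and 597, 728 and 703 bp, and in Pcdhb8 (chr18:37356672-37357524) 669 bp and 239, 451 and 387 bp. These genes resemble each other in sequence: the median share of repeated words was 12.5% over the 24 regions and 9.66% over those of Pcdhb, and 2 of the Pcdhg regions were over 50%, so the split of reads between copies is uncertain.

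Zinc finger genes (symbols that begin with Zfp, Zkscan or Zscan) held regions in 47 of 415 (11.3%), near the share of all coding genes. Of their 48 regions 41 lay on a last exon, where these genes usually encode the zinc fingers, and 13 had a peak in all libraries. The median GC content of the 48 was 59.4% and 17 were CpG-island-like. The widest of those with a peak in all libraries were those of Zfp697 (chr3:98427237-98428722), Zfp467 (chr6:48437993-48439184) and Zfp746 (chr6:48063891-48065058), with GC contents of 67.2%, 65.6% and 61.5%. The Zfp467 peaks were 1147 bp wide in shGFP and 1036, 1073 and 922 bp in shLuc replicates 1, 2 and 3.

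Genes of lysine methyltransferases, demethylases and the Prdm family held regions in 12 of 47 (25.5%, Wilson 95% interval 15.3 to 39.5%), with Prdm13, Prdm2 and Setd1b in all libraries. Chromatin remodelers held them in 9 of 42 (21.4%), with a region of Smarcc1, a core subunit of the BAF complex, in all libraries and of Chd5 and Smarcad1 in 3. Collagen genes held them in 11 of 43 (25.6%), led by Col8a2, Col25a1 and Col9a3, and solute carriers in 54 of 358 (15.1%), led by Slc47a2, Slc25a23 and Slc28a1. The exons of 3 of these lists were long, with a median per gene of 6954 bp for the methyltransferase list, 8231 bp for the remodelers and 7621 bp for the collagens, while the solute carriers had 4190.5 bp, against 5445 bp for all host genes and 3374 bp for the other coding genes. The Setd1b region (chr5:123149599-123150495) touched an exon of a noncoding transcript only.

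Lists of developmental regulators were short, and their shares lay on both sides of that of all coding genes. Forkhead genes held regions in 6 of 41 (14.6%, Wilson 95% interval 6.88 to 28.4%) and Klf genes in 3 of 16 (18.8%, 6.59 to 43.0%). Sox, Pax and Tbx genes held 1 region per list, in Sox30 (5.56% of 18 genes), Pax1 (11.1% of 9) and Tbx21 (8.33% of 12). The 39 Hox, 4 Zic and 5 Gata genes held 0. The interval for Hox was 0 to 8.97%, below the share of all coding genes. Hox exons were short, with a median per gene of 2472 bp, against 3374 bp for coding genes without a region. The part of exon length was not tested. None of 25 pluripotency genes held an exonic region (interval 0 to 13.3%, which includes the 10.7% of all coding genes), and 16 of them had an open promoter. At Foxo6 (chr4:120267496-120269067) a CpG-island-like region of 1572 bp in the last coding exon had peaks in shGFP and shLuc replicate 3, and Foxn2 (chr17:88486081-88486912) had peaks in the same 2 libraries. Foxn1 (chr11:78358463-78358870) had peaks in shGFP and shLuc replicates 1 and 2. The Klf regions were those of Klf12 (3 libraries), Klf6 (2) and Klf13 (1), and the last 2 touched 3′ UTR. Exon made up 52.7% of the Klf6 region and 100% of the Klf13 region. Of 22 imprinted genes, which are expressed from 1 parental allele, 3 held a region: Ndn (chr7:62348116-62349216), an intronless gene, and Kcnq1ot1 (chr7:143289167-143289899), a noncoding RNA, each in all libraries but shLuc replicate 1, and Plagl1 (chr10:13127292-13127720) in shGFP and shLuc replicate 3.

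Matches to the core motif of CTCF, the protein that anchors chromatin loops, were found in the central 200 bp of 113 exonic regions (4.01%, Wilson 95% interval 3.34 to 4.80%), against 3.37% of intronic, 3.48% of intergenic, 0.834% of promoter and 2.01% of all regions. The interval overlapped that of intronic regions (3.04 to 3.73%). The share was 6.44% for UTR regions (4.47 to 9.21%) and 3.52% for coding regions (2.78 to 4.44%). By the number of libraries with a peak it was 4.02% in 1, 6.10% in 2, 2.82% in 3 and 2.55% in all 4 (10 of 392 regions). To show the matches, 30 bases around those of 8 of these 10 regions are given. The 14 matched bases are in capitals on the strand of the motif.
Zfp362, chr4:128776933-128776962, - strand: cgccaagtCCAGCAGGGGGCACagtcccat
6820408C15Rik, chr2:152437680-152437709, - strand: gaaagaagCCAGCAGAGGGCGCgcctgcgc
Rasip1, chr7:45628949-45628978, - strand: gtcctgcaCCAGCAGAGGGCGCtccgcgtc
Mettl14, chr3:123372092-123372121, - strand: cttggaagCCACTAGAGGGCGCgtctgtct
Gm10787, chr10:77021552-77021581, - strand: ccattctgCCACTAGGGGGCAGtgtagtca
Tcp11l1, chr2:104685582-104685611, + strand: caagatggCCAGCAGAGGGCAGcagagccg
Cryzl1, chr16:91694874-91694903, + strand: tcagccgtCCACTAGAGGGCAGccatgcag
Dnah14, chr1:181616334-181616363, - strand: atattctaCCACCAGGTGGCACtcctgggc
The match lay in coding sequence in Rasip1, in UTR in Mettl14 (a subunit of the RNA adenosine methyltransferase) and Cryzl1, in a noncoding exon in the lincRNA gene Gm10787, and in the intron beside the exon in Zfp362, 6820408C15Rik, Tcp11l1 and Dnah14. A match is a run of letters, not a bound site. The Mettl14 peaks were 562 bp wide in shGFP and 379, 618 and 553 bp in shLuc replicates 1, 2 and 3.

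Of 8 other short words, each searched on both strands, the octamer was rarer and the E-box commoner in exonic than in intronic centres. The octamer ATGCAAAT, bound by POU factors such as Oct4, was in 1.45% of exonic centres (Wilson 95% interval 1.07 to 1.97%), 2.62% of intronic ones (2.33 to 2.95%) and 2.20% of all autosomal regions. The E-box CACGTG, which contains a CpG, was in 4.18% (3.51 to 4.99%) of exonic centres, 2.62% of intronic ones (2.33 to 2.95%) and 3.30% of all. The shares of words for KLF (GGGNGTGG, 8.83% and 9.21%), ESRRB (TCAAGGTCA, 0.355% and 0.605%), YY1 (AAGATGGC, 1.13% and 1.06%), ETS (CCGGAAGT, 0.638% and 0.346%), CRE (TGACGTCA, 0.248% and 0.182%) and REST (TTCAGCACC, 0.390% and 0.490%) had intervals that overlapped between exonic and intronic centres. Over all autosomal regions these shares were 9.20% for KLF, 0.442% for ESRRB, 5.49% for YY1, 1.19% for ETS, 0.538% for CRE and 0.343% for REST. The median GC content of the same central 200 bp was 53.5% in exonic and 49% in intronic regions, and its part in the shares was not tested. A region of Epg5 (chr18:78014526-78015092), an autophagy gene, also held a central CTCF match and a peak in all libraries.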

How the data were processed

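ATAC-seq of 4 E14 libraries (1 shGFP, 3 shLuc) was used. The authors deposited 1 peak list per library with 3 columns of positions and no score or ratio. The submitters' processing notes name bcl2fastq, Bowtie2, MACS2 and mm10; versions, the peak threshold and any shift for the transposase are not given in the sources used here. The study's methods, under a heading shared with ChIP-seq, keep the best alignment, place ties at random and use concordant pairs. Depth is unknown. Random placement bears on repeated sequence.

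Peaks on 19 autosomes of GRCm38 (mm10) were merged and annotated with GENCODE mouse release M21. Python 3.11.15 was used (numpy 2.4.6, pandas 2.3.3, scipy 1.17.1, numba 0.67.0, and matplotlib 3.10.9 for plots). Classes were taken in the order coding sequence, UTR, noncoding gene, noncoding transcript; the gene was that with the largest overlap. Coordinates count from 1. Within-library differences were tested with an exact sign-flip permutation test. Wilson and Poisson intervals cover counting error only. Gene and word functions were tested on simulated data.

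The regions, lists and tests were chosen with earlier results of these data known. Named were the 4 widest regions per class with a peak in all libraries, up to 8 genes with at least 3 regions, up to 3 genes per list, the 3 widest per hairpin pattern, the 4 highest and 4 lowest in GC, and the 6 widest with a central CTCF match; Tcp11l1, Cryzl1, Dnah14 and Prdm9 were chosen after their values were seen. Regions of 2 genes that this rule picks are not reported here. Alternatives were other exon, start-site, mask, merging and list-length settings and leaving out each shLuc library.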

Additional observations from a re-analysis of the deposited data

How the results depend on the processing

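The 16 results were recomputed under 13 settings that kept all libraries, 181 values in all, of which 122 were counted as unchanged. Counts had to stay within 1.5 times and most other values within their error. The GC and CpG differences from intronic regions had only to keep their sign. Their sizes moved, from 4.68 points and 0.142 to 7.66 and 0.230 for the widest 50% of each list. With no limit on soft-masked bases they were 3.33 and 0.0990. The direction of the differences in GC content and CpG ratio from intronic regions and of the excess density on coding sequence was kept in all settings run, and the causes of the moves below were not tested. With the region's centre in an exon, or at least 50% of its bases in exons, there were 1635 and 1423 regions (3.22% and 2.81% of all), with 59.7% and 55.9% on coding sequence, 21.5% and 24.7% on UTR, 68.0% and 76.7% on a last exon and 219 and 197 only in shGFP, and in the second setting 37.8% in 1 library. With no transcript start within 5 kb there were 1625 (3.20%), with 10.5% on noncoding genes, 232 only in shGFP and 8 in all shLuc alone; within 500 bp the shares were 6.17% and 14.4%. With start sites of coding genes only there were 4271 (8.42%), with 48.1% on coding sequence, 10.3% on UTR, 38.4% on noncoding genes, 39.7% on a last exon, 18.9% in all libraries and 31.1% in 1. Under 25% soft-masked bases the share of all regions was 5.05% and the density ratio 2.64; with no limit the share was 5.81%. With basic transcripts only it was 5.19%, with 43.9% on a last exon. For the widest 50% of each list, and for lists cut to the shortest, there were 1091 and 1284 regions (4.29% and 4.65%), with 73.3% and 73.1% on coding sequence, 9.53% and 10.7% on UTR, 55.9% and 55.2% on a last exon, 7.06% and 9.81% in all libraries, 48.1% and 54.4% in 1, a median width of 864 and 810 bp, 210 and 109 only in shGFP and 6 and 23 in all shLuc alone; for the cut lists the median GC content was 55.1% and the shGFP minus shLuc difference -0.152. With a peak in at least 2 libraries there were 1825 (5.03%), with a width of 697 bp and a density ratio of 2.60.

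Leaving out each shLuc library in turn gave shares of all regions of 5.26% (without replicate 2) to 5.47%, of regions in all remaining libraries of 17.1% (without replicate 2) to 37.6% (without replicate 1) and in 1 library of 36.4% to 46.4% (without replicate 2). The shGFP minus shLuc difference ran from 0.270 (without replicate 1) to 0.842 percentage points (without replicate 2). Leaving out libraries gave 418 to 779 regions only in shGFP (without replicate 2) and 29 to 92 in all remaining shLuc libraries alone (without replicate 1). No paired analysis was possible because shGFP has a single library without a replicate number and its comparison comes from no test. Without scores or depth, a missing peak cannot be told from a weak one.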
